A study of Mus musculus with 4 samples.

Results

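A small population of cells with an endothelial transcriptome was present in single-cell libraries of colonic lamina propria CD45+ leukocytes. The cells were chosen from their own raw counts of unique molecular identifiers (UMIs), each of which stands for 1 captured transcript. A cell was kept with at least 200 detected genes and under 20% mitochondrial UMIs. A kept cell was called endothelial when it held at least 4 UMIs summed over Cdh5, Egfl7, Cldn5 and Plvap, at least 1 UMI of Pecam1, and 0 UMIs of Ptprc, Cd3e, Cd79a, Csf1r and Epcam. This gave 97 endothelial cells among 43432 kept cells.

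All 4 samples came from mice with chemical colitis, induced by 2% dextran sulfate sodium (DSS) in the drinking water for 7 days, with tissue taken on day 8. DSS is a polymer that damages the lining of the colon. Each sample was a mixture of colons from 3 mice, whose age is 10 weeks in the sample labels and 8 weeks in the study's outline of the experiment. Red blood cells were lysed and CD45+ cells were selected with magnetic beads before droplet sequencing. The study compared AhR-null and wild-type mice, but the labels do not give the genotype of a sample, so no groups were formed and no test was made between samples. Values are given sample by sample, with a median over samples or a sum over all 97 cells where stated. The label "intestinal lamina propria leukocytes" was checked on Ptprc, the gene of CD45, which was detected in 95.9%, 94.9%, 92.9% and 92.8% of kept cells in samples 1 to 4.

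Endothelial cells line blood and lymphatic vessels. They are held together by VE-cadherin, receive growth signals through VEGF and angiopoietin receptors, and, in the gut, control the passage of nutrients, fluid and leukocytes between blood and tissue. Capillary endothelium of the gut is fenestrated, venules carry the selectins and adhesion molecules that capture leukocytes during inflammation, and lymphatic vessels drain fluid, fat and migrating immune cells. Endothelial cells are not known to carry CD45, the target of the beads.

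The samples differed in how many endothelial cells they held. Samples 1 to 4 contained 8, 4, 48 and 37 of them among 10986, 13223, 11164 and 8059 kept cells. The share was 0.0728% in sample 1, with a 95% exact binomial (Clopper-Pearson) interval of 0.0314% to 0.143%. In sample 2 it was 0.0303% (0.00824% to 0.0774%). In sample 3 it was 0.430% (0.317% to 0.570%), and in sample 4 0.459% (0.323% to 0.632%). The median share was 0.251%. The intervals of samples 1 and 2 lay below those of samples 3 and 4, while the samples within each pair had overlapping intervals. Intervals here and below cover counting error only and not the spread between mice.

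Fibroblast-like cells were likewise fewer in samples 1 and 2 than in samples 3 and 4, although their highest share was in sample 3. They were chosen by at least 4 UMIs of Col1a1, Col3a1, Dcn and Lum together with Pdgfra and no UMI of Ptprc, Cd3e, Cd79a, Csf1r, Epcam or Cdh5, and numbered 20, 15, 182 and 78, or 0.182%, 0.113%, 1.63% and 0.968% of kept cells. The number of endothelial cells per fibroblast-like cell was 0.400 (95% interval 0.152 to 0.948), 0.267 (0.0644 to 0.837), 0.264 (0.188 to 0.364) and 0.474 (0.312 to 0.710) in samples 1 to 4. The intervals of this ratio overlapped between all samples. Epithelial-like cells numbered 13, 18, 8 and 30, a different order. The part of the bead selection in these numbers was not tested.

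**Figure D1:**
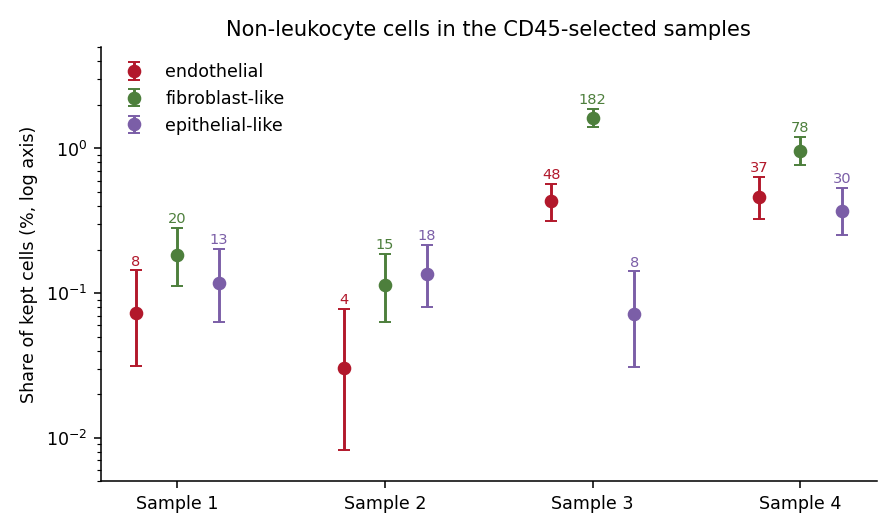
Share of kept cells (vertical axis, percent, log scale) that were endothelial, fibroblast-like or epithelial-like in each sample. Points are shares, bars are 95% exact binomial intervals and numbers are cells. Endothelial and fibroblast-like shares are higher in samples 3 and 4 than in samples 1 and 2, and epithelial-like shares are lowest in sample 3.

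In the samples with few endothelial cells the exclusion of leukocyte and epithelial genes removed a larger share of the candidates. With the exclusion left aside, 33, 21, 89 and 53 cells met the endothelial criteria, and 75.8%, 81.0%, 46.1% and 30.2% of them were removed. Of the 99 removed cells, 73 held Ptprc, 34 Csf1r, 26 Cd79a, 8 Cd3e and 8 Epcam, and 43 held a single UMI of the excluded genes. Their median UMI totals were 22552, 9414, 14115 and 11425 in samples 1 to 4, against 7484, 12264, 7721 and 5433 in the retained cells. Scrublet, which scores doublets, placed 20 of the removed cells and 3 of the 97 retained cells among its highest scores. The share of kept cells so marked was fixed beforehand, at 0.8% for each 1000 kept cells of a sample.

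The removed cells were chosen by excluded genes, so they are compared on the genes outside the selection, as a description. Levels are given as counts per 1000000 UMIs (CPM), from the UMIs summed over the cells of a class. The 25 pan-endothelial genes outside the selection summed to 7740, 7315, 8131 and 7690 CPM in the removed cells of samples 1 to 4 and to 16192, 15220, 11274 and 11838 CPM in the retained cells. They were lower in the removed cells of every sample. Leukocyte genes without Ptprc summed to 2110, 1901, 1728 and 2342 CPM in the removed cells and to 280, 285, 184 and 164 CPM in the retained cells. Neutrophil genes were higher in the removed cells of every sample as well, but unevenly, from 1405 CPM in sample 2 to 24590 CPM in sample 4. B and plasma cell genes without Cd79a had no common direction, with 667, 29147, 191 and 66.5 CPM in the removed cells and 7210, 1427, 144 and 134 CPM in the retained cells.

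Near the threshold, 5 retained cells held exactly 4 UMIs of the 4 endothelial genes, 5 held 5 UMIs, and 1 cell fell outside with 3. A further 5 cells reached the sum but lacked Pecam1, and 4 retained cells had a single Pecam1 UMI. The median sum was 34.5, 30, 18 and 13 UMIs in samples 1 to 4. No endothelial cell barcode was shared between the endothelial cells of different samples, and 1 such barcode occurred among the other cells of another sample.

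The endothelial cells of samples 1 to 4 held 75036, 56043, 456993 and 269061 UMIs, 857133 in all. For a gene with no UMI a limit of 3 counts is used, a one-sided 95% limit, which is 40.0, 53.5, 6.56 and 11.1 CPM and lies below the upper end of the two-sided intervals given for other levels. For single genes, samples 1 and 2 are therefore given as UMIs, and levels are read in samples 3 and 4. A gene is called higher or lower where its level differed by at least 2-fold from the comparison cells of the same sample, in both sample 3 and sample 4, after adding 1 CPM. Because endothelial, leukocyte and epithelial genes chose the cells, these calls describe the chosen cells and are not a test.

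The genes of the selection were abundant by construction. Cdh5, which encodes VE-cadherin, had 102, 50, 537 and 317 UMIs in samples 1 to 4, or 1175 and 1178 CPM in samples 3 and 4. Plvap, the diaphragm protein of fenestrae, had 162, 56, 483 and 173 UMIs (1057 and 643 CPM). Pecam1, an adhesion molecule of endothelial junctions, had 110, 75, 796 and 362 UMIs (1742 and 1345 CPM). Egfl7, a secreted endothelial protein, had 38, 13, 166 and 118 UMIs. Cldn5, a tight junction claudin, had 14, 6, 114 and 159 UMIs and was detected in only 39 of the 97 cells.

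Endothelial genes that the selection did not use were present as well. All 25 measured genes of the pan-endothelial list outside the selection were higher than in the other kept cells, with a median log2 ratio of 6.77. Across all 8074 genes measured, 15.4% were higher and 17.7% lower, and the median log2 ratio was -0.06. Emcn, a sialoglycoprotein of capillaries and veins, had 30, 11, 247 and 161 UMIs. Its level was 540 CPM (95% exact Poisson interval 475 to 612) in sample 3 and 598 CPM (510 to 698) in sample 4, against 2.65 and 1.20 CPM in the other kept cells. It was detected in 81.2% and 94.6% of endothelial cells and in 0.424% and 0.281% of Ptprc-positive cells. With each cell thinned to 1000 UMIs these shares became 32.6% and 45.9% against 0.0585% and 0.0545%.

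Flt1 and Kdr, both receptors of VEGF, were present in every sample. Flt1 had 166, 107, 922 and 398 UMIs, or 2018 and 1479 CPM in samples 3 and 4, against 15.2 and 10.4 CPM in the other kept cells. Kdr had 87, 39, 220 and 113 UMIs. Tie1, an orphan receptor of the angiopoietin system, had 15, 9, 102 and 62 UMIs and stood at 223 and 230 CPM against 1.27 and 0.929 CPM. Tm4sf1, a tetraspanin-like membrane protein, had 130, 196, 556 and 515 UMIs. The same 25 genes were also higher than in the fibroblast-like cells, where 12.2% of 7705 measured genes were higher and 11.9% lower. Counts of gene groups below are to be read beside these shares, or beside 15.4% and 17.7% for the other kept cells.

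**Figure D2:**
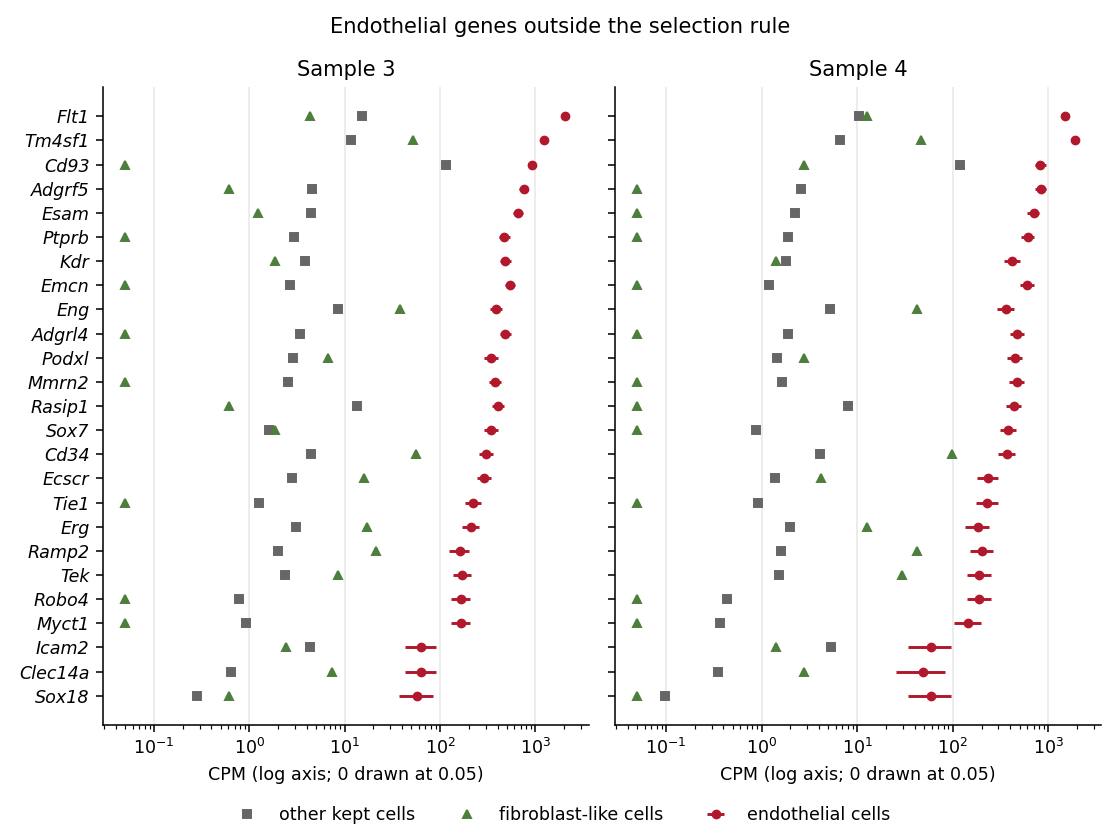
Levels of the 25 pan-endothelial genes outside the selection in samples 3 and 4 (horizontal axis, CPM, log scale, with 0 drawn at 0.05). Red points with 95% exact Poisson intervals are endothelial cells, grey squares other kept cells and green triangles fibroblast-like cells. Every red point lies to the right of the other symbols of its gene.

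Markers of leukocytes and epithelial cells outside the selection were mostly low in the endothelial cells, whereas mural genes, described further on, were not. All 9 measured leukocyte genes were lower than in the other kept cells, as were 9 of 9 macrophage, 8 of 8 T cell, 7 of 8 neutrophil, 5 of 5 B and plasma cell and 7 of 7 epithelial genes. The leukocyte list without Ptprc, which the selection holds at 0, summed to 280, 285, 184 and 164 CPM in the endothelial cells of samples 1 to 4, against 6299, 4538, 5740 and 5338 CPM in the other kept cells, and its most abundant gene was Lcp1. Lcn2 was the exception among neutrophil genes, with 678 and 331 CPM against 626 and 1008 CPM, and 1 cell held 122 of its 403 UMIs. B and plasma cell genes summed to 7210 CPM in sample 1, near the 8163 CPM of the other kept cells, and there 1 cell with 3742 UMIs held 217 of all 297 Igkc UMIs and 218 of all 242 Jchain UMIs. Cd79b, which the selection did not use, was at 0 in all 97 cells.

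Among the smaller lists, 2 of 3 measured dendritic cell genes, the single measured platelet gene and the single measured mesothelial gene were lower. No glial or neuronal gene reached the level needed to be measured. Fibroblast genes had no UMI in samples 1 and 2 and summed to 267 and 138 CPM in samples 3 and 4, with 2 of 6 measured genes lower than in the other kept cells. Against the fibroblast-like cells 9 of 9 were lower. Genes of this list, such as Dcn and Lum, chose those cells, so that count was largely fixed beforehand and is no result. Hbb-bs, a haemoglobin gene, was higher, with 0, 0, 44 and 32 UMIs in 11 cells. Kit, read here as the single measured mast cell gene, was higher at 147 and 149 CPM against 39.2 and 41.5 CPM, while Fcer1a, Mcpt2, Mcpt4 and Tpsb2 were at 0.

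Several of the endothelial genes share a sequence motif before their start. Many endothelial genes are bound by ETS factors, which recognise a GGAA core, and the letters GGAAGT were searched on both strands (reverse complement ACTTCC) in the 250 bases before the transcript starts of the pan-endothelial list. RefSeq promoters on GRCm38.p6 were found for 17 of the 30 genes, and 8 of these, or 47.1%, held the motif, beside 22.2% of all 27025 genes with a promoter in that table. A match is a description of the letters and not a binding site, and no test was made of the difference. The promoters of 4 genes whose levels are given here are shown with the match in capitals, read 5′ to 3′ on the strand of the gene, since they show where the letters lie relative to the start.

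Eng (chr2:32646345-32646594, plus strand): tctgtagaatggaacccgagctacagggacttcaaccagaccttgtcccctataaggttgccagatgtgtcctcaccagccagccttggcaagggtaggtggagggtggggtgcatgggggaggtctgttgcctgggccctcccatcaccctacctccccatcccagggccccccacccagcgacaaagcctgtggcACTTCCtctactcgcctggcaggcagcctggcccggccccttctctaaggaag
Tie1 (chr4:118489850-118490099, minus strand): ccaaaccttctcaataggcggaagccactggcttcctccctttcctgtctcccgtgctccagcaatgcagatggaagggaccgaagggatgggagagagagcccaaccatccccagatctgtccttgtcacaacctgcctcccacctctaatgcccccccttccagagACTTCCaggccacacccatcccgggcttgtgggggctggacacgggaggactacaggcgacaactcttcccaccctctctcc
Flt1 (chr5:147726012-147726261, minus strand): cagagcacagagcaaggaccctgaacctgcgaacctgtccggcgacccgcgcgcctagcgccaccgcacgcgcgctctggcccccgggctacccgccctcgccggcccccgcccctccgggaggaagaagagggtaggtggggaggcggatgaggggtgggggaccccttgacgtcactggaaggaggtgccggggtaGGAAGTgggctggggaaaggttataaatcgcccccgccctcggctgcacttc
Egfl7 (chr2:26583615-26583864, plus strand): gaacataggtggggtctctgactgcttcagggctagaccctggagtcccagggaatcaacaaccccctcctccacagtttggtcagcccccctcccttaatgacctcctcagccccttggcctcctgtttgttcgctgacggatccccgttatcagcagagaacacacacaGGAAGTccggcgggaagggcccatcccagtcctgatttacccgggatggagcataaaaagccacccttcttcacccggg

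The match began 53 bases before the RefSeq start in Eng, 82 in Tie1, 52 in Flt1 and 79 in the Egfl7 start shown. In Eng and Tie1 it lay on the opposite strand, as ACTTCC. Egfl7 has 3 starts in the table, of which 1 held no match and 1 held matches at 217 and 160 bases. In the other genes with a match it began 217 bases before the start in Kdr, 146 in Tm4sf1, 6 in Myct1, and 76 and 36 in 1 start of Adgrf5. The 4 promoters shown therefore do not give the range of positions. Eng, a co-receptor for TGF-beta and BMP ligands, had 96, 36, 177 and 97 UMIs in the endothelial cells of samples 1 to 4, or 387 and 361 CPM in samples 3 and 4 against 8.59 and 5.20 CPM in the other kept cells.

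Receptors for vascular growth factors were a uniform group. All 12 measured receptors for VEGF, angiopoietins and semaphorins were higher than in the other kept cells, with a median log2 ratio of 5.85, and 9 of 12 were higher than in fibroblast-like cells. Of the ligands, 2 of 3 measured were higher, namely Pgf and Angpt2, and Vegfa was lower. Vegfa had 0, 2, 15 and 2 UMIs. In the Notch, TGF-beta and BMP group, 12 of 15 genes were higher and none was lower, with Notch1 at 374 and 361 CPM against 44.9 and 46.6 CPM and Bmpr2 at 512 and 550 CPM against 91.2 and 76.4 CPM. Jag1, Tgfbr2 and Smad7 were neither higher nor lower.

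Of the endothelial transcription factors, 15 of 22 measured were higher and none was lower. Erg, an ETS factor, had 21, 16, 96 and 49 UMIs, and Sox7, Sox17 and Sox18 were each under 2 CPM in the other kept cells of samples 3 and 4. Sox7 was at 344 and 379 CPM in the endothelial cells. Mecom, a zinc finger factor, was at 689 and 688 CPM against 14.1 and 32.9 CPM. Fli1, Ets1, Ets2, Elk3, Klf2, Klf6 and Foxo1 were neither higher nor lower than in these leukocyte-rich cells.

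All 14 measured genes of leukocyte adhesion were higher than in the other kept cells, with a median log2 ratio of 4.81. Selp, the P-selectin that first slows leukocytes, had 39, 122, 118 and 196 UMIs, which is 258 CPM (95% interval 214 to 309) in sample 3 and 728 CPM (630 to 838) in sample 4, against 5.69 and 3.68 CPM. Madcam1, the gut homing ligand of integrin alpha4beta7, had 21, 54, 36 and 52 UMIs, and Ackr1, a venular chemokine carrier, had 49, 73, 46 and 48. Sele, the E-selectin, had 4, 8, 17 and 29 UMIs. These 4 genes were present in all 4 samples, but in sample 1 a single cell held all their UMIs, and in sample 2 each was found in 2 cells.

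Icam1 and Vcam1, the ligands of leukocyte integrins, differed in how they compared with fibroblast-like cells. Icam1 had 16, 27, 267 and 154 UMIs, or 584 and 572 CPM, against 140 and 118 CPM in the other kept cells and 495 and 481 CPM in the fibroblast-like cells. Vcam1 had 11, 30, 200 and 65 UMIs, or 438 and 242 CPM, against 108 and 111 CPM in the other kept cells and 1309 and 861 CPM in the fibroblast-like cells. The ratio to fibroblast-like cells was 1.18 (95% counting interval 1.02 to 1.36) and 1.19 (0.977 to 1.44) for Icam1, and 0.334 (0.288 to 0.387) and 0.280 (0.214 to 0.363) for Vcam1. Of the 15 adhesion genes measured against fibroblast-like cells, 10 were higher and Vcam1 alone was lower.

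Among chemokines and cytokines, 10 of 20 measured genes (50%) were higher than in the other kept cells and 5 (25%) were lower, beside 15.4% and 17.7% of all measured genes. Against the fibroblast-like cells 6 of 18 were higher and 6 lower, where 12.2% of all measured genes were higher and 11.9% lower. Kitl, the ligand of the stem cell and mast cell receptor Kit, had 87, 73, 777 and 368 UMIs. It stood at 1700 CPM (1583 to 1824) in sample 3 and 1368 CPM (1232 to 1515) in sample 4, against 37.8 and 34.2 CPM in the other kept cells and 601 and 614 CPM in the fibroblast-like cells. Il6 had 57, 28, 261 and 137 UMIs, which is 571 CPM (504 to 645) and 509 CPM (427 to 602) in samples 3 and 4, against 41.4 and 39.3 CPM in the other kept cells. In fibroblast-like cells Il6 was at 451 and 494 CPM, and the ratio of endothelial to fibroblast-like cells was 1.27 (1.09 to 1.46) in sample 3 and 1.03 (0.840 to 1.26) in sample 4. Il6 was detected in 75.0% and 45.9% of endothelial cells and in 7.92% and 8.02% of Ptprc-positive cells, which became 32.6% and 27.0% against 1.88% and 2.25% after thinning. On GRCm38, as GENCODE release M21 annotates it, Il6 (ENSMUSG00000025746) spans chr5:30013114-30019981 and Kitl (ENSMUSG00000019966) chr10:100015630-100100416.

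Csf3, the granulocyte growth factor, was seen in 3 of the 4 samples. It had 0, 12, 237 and 88 UMIs, or 519 and 327 CPM in samples 3 and 4 against 43.1 and 28.6 CPM in the other kept cells and 144 and 75.8 CPM in the fibroblast-like cells. Cxcl10, an interferon-induced chemokine, had 85, 75, 113 and 102 UMIs in 28 cells. The neutrophil chemokine Cxcl2 was lower, at 619 and 264 CPM against 4015 and 3881 CPM, and Il1b was lower, at 30.6 and 11.1 CPM against 1569 and 1333 CPM. Ccl5, Il1a and Tnf were also lower. Ccl2, a monocyte chemokine, was at 151 and 156 CPM, close to the other kept cells (178 and 171 CPM) and far under the fibroblast-like cells (3573 and 1877 CPM).

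**Figure D3:**
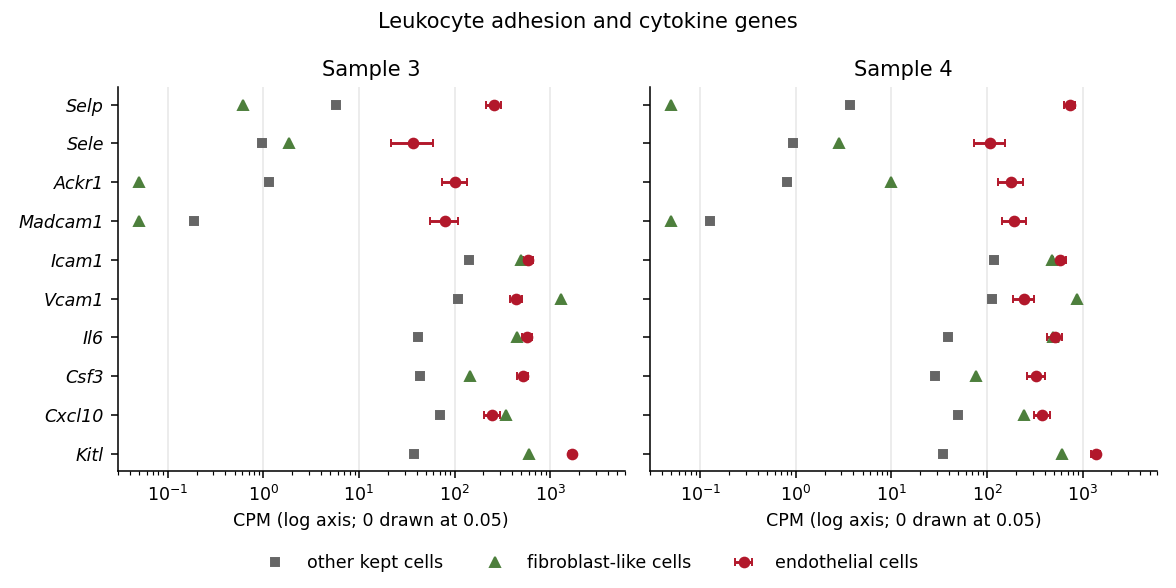
Levels of 10 leukocyte adhesion and cytokine genes in samples 3 and 4 (horizontal axis, CPM, log scale, with 0 drawn at 0.05). Red points with 95% exact Poisson intervals are endothelial cells, grey squares other kept cells and green triangles fibroblast-like cells. All 10 genes lie above the other kept cells, whereas Icam1 and Il6 lie near the fibroblast-like cells and Vcam1 lies below them.

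Of 23 measured cytokine receptors, 3 (13.0%) were higher than in the other kept cells and 8 (34.8%) were lower, beside 15.4% and 17.7% of all measured genes. The share that was higher is near that of all genes and is no result about the group. The 3 genes were Il6st, Osmr and Lifr. Il1rap, Tnfrsf1b, Ifngr1, Ifngr2, Il10ra, Il10rb, Il17ra and Il1rl1 were the 8 lower genes. Of 21 receptors measured against the fibroblast-like cells, none was higher, 3 were lower and 18 were neither. Of all genes measured in that comparison 12.2% were higher and 11.9% lower.

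Genes of lipid and solute transport were raised as a group. Of 16 measured, 14 were higher than in the other kept cells, with a median log2 ratio of 5.04. Fabp4, a fatty acid binding protein of capillaries, had 239, 123, 3939 and 2709 UMIs in 93 of 97 cells. It stood at 8619 CPM (8352 to 8893) and 10068 CPM (9693 to 10455) in samples 3 and 4, against 56.2 and 41.8 CPM in the other kept cells and 5.51 and 35.1 CPM in the fibroblast-like cells. A single cell of sample 3 held 1450 of the Fabp4 UMIs, or 20.7%. Cd36, a fatty acid transporter, had 39, 28, 745 and 835 UMIs, and Gpihbp1, which anchors lipoprotein lipase on capillaries, had 7, 0, 254 and 133. Slco2a1, a prostaglandin transporter, was at 619 and 457 CPM against 3.87 and 6.14 CPM.

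The vessel wall functions were represented by several groups. All 11 measured junction genes outside the selection were higher, and 12 of 13 basement membrane genes were higher, with Col4a2, a collagen IV chain, at 722 and 654 CPM against 36.8 and 16.5 CPM. Against the fibroblast-like cells, which had 681 and 533 CPM of Col4a2, 3 of 13 basement membrane genes were higher, 1 was lower and 9 were neither, where 12.2% of all measured genes were higher and 11.9% lower. Of vasoactive genes, 9 of 11 were higher and Ptgs2 was lower. Nos3, the endothelial nitric oxide synthase, had 21, 19, 68 and 48 UMIs and was at 149 and 178 CPM against 1.39 and 0.887 CPM. Of 10 coagulation and fibrinolysis genes, 7 were higher, including Vwf, the platelet-binding von Willebrand factor, with 12, 40, 58 and 38 UMIs. F3, the tissue factor that starts clotting, was lower, with 0, 0, 5 and 0 UMIs.

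Interferon-induced genes were split. Of 24 measured, 10 (41.7%) were higher than in the other kept cells, 2 (8.33%) were lower and 12 were neither. Of all measured genes 15.4% were higher and 17.7% lower. Iigp1, an interferon-gamma-induced GTPase, had 17, 99, 215 and 190 UMIs, or 470 and 706 CPM against 30.8 and 17.5 CPM. Against the fibroblast-like cells, 14 of 24 were higher and 1 was lower, where 12.2% of all measured genes were higher and 11.9% lower. In antigen presentation, none of 12 genes was higher and 6 (50%) were lower than in the other kept cells, beside the 15.4% and 17.7% of all measured genes. The class I genes H2-K1, H2-D1 and B2m were neither, and H2-K1 was at 2123 and 1758 CPM against 1406 and 1517 CPM. The class II invariant chain gene Cd74 was at 527 CPM in sample 3 and 119 CPM in sample 4. Their ratio was 4.43 (95% counting interval 3.06 to 6.63). Cd74 was at 1967 and 1606 CPM in the other kept cells and at 42.2 and 25.3 CPM in the fibroblast-like cells. Against the fibroblast-like cells, 3 of 10 antigen presentation genes were higher and none was lower, beside 12.2% and 11.9% of all measured genes.

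The AhR pathway and polyamine genes, which the study is about, gave a share near that of all genes. Of 8 measured, 1 (12.5%) was higher than in the other kept cells, beside 15.4% of all measured genes, and none was lower. Ahr had 8, 7, 31 and 9 UMIs in 32 cells, or 67.8 CPM (46.1 to 96.3) and 33.4 CPM (15.3 to 63.5) in samples 3 and 4, against 105 and 111 CPM in the other kept cells. These UMIs do not show which allele the mice of a sample carried. Odc1, the rate-limiting enzyme of polyamine synthesis, was the higher gene, with 4, 11, 110 and 65 UMIs and 241 and 242 CPM against 110 and 114 CPM. Against the fibroblast-like cells, all 8 measured genes of this group, Odc1 included, were neither higher nor lower. Of all genes measured in that comparison 12.2% were higher and 11.9% lower. Cyp1a1, the classical AhR target, was not detected, and the limit of 3 counts is 3.50 CPM over all 97 cells.

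Stress, growth and cycling genes completed the description. Of 13 immediate early genes 4 (30.8%) were higher than in the other kept cells (Fosb, Jun, Egr1 and Atf3), beside 15.4% of all measured genes. None of 14 was higher than in the fibroblast-like cells and 3 were lower, beside 12.2% and 11.9% of all measured genes. Of 10 heat shock genes 5 (50%) were higher than in the other kept cells. Against the fibroblast-like cells 1 of the 10 was higher, which is near the 12.2% of all measured genes and no result about the group. Against the other kept cells, of 14 hypoxia and glycolysis genes 1 was higher and 3 were lower, and of 15 NF-kB feedback genes 3 were higher and 3 lower. The shares of these last 2 groups, 7.14% and 20% higher and 21.4% and 20% lower, are near the 15.4% and 17.7% of all measured genes and are no result about them. Of 8 measured cell cycle genes, Pcna alone (12.5%) was higher, which is near the 15.4% of all measured genes and no result about the group. The 4 lower genes (50%) stand beside 17.7% of all measured genes. Mki67 had 1 UMI, and Cdk1 and Cenpf had none, in 97 cells.

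Genes outside all lists also stood out, and 20 were taken by the largest ratio to the other kept cells in the sample where that ratio was smaller. Cyyr1, a membrane protein, had 79, 93, 464 and 296 UMIs in 90 of 97 cells, with 1015 and 1100 CPM and ratios of 150 and 383. Apold1, an endothelial early response gene, was found in 88 cells and had 0 UMIs in the fibroblast-like cells of samples 3 and 4. Adamts9, a secreted protease, had 196, 244, 1231 and 847 UMIs, or 2694 and 3148 CPM. Igfbp3, which binds insulin-like growth factors, had 103, 12, 1446 and 373 UMIs, and Inhbb, an activin subunit, had 13, 0, 293 and 84. The remaining 15 were Tmem252, Shank3, Ldb2, Rbp7, Ccdc85a, Irx3, Galnt18, Pcdh17, Stc1, Prex2, Grrp1, Cdh13, Fgd5, Dysf and Scgb3a1, each at 77.2 to 543 times the other kept cells in samples 3 and 4.

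The 97 cells were clustered together and fell into 6 clusters at a Leiden resolution of 1.0. A cluster was considered for a name where at least 50% of the markers of a vessel type were raised in it, a rule set after the clusters had been seen. Because the clusters were made from these genes, their differences are a description. Clusters 1 to 6 held 22, 21, 16, 15, 12 and 11 cells. Samples 3 and 4 contributed to all 6 clusters, and sample 2, with 4 cells, to 3 of them.

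Cluster 6 was venous-like, with 9 of 10 venous markers raised, and held 1, 2, 4 and 4 cells of samples 1 to 4. Ackr1 had 216 UMIs in its 11 cells, or 2099 CPM, and 0 UMIs in the other 86 cells. Selp was at 3343 CPM against 174 CPM in the other endothelial cells, Madcam1 at 1186 against 54.4 CPM, and Sele at 486 against 10.6 CPM. Vcam1 and Csf3, which are among the 9 markers, were at 1545 against 195 CPM and 1108 against 296 CPM. Cxcl10, which is not a marker, was at 2604 against 142 CPM, with 71 and 68 of the cluster's 268 UMIs in 2 cells. Il6 was less uneven, at 700 against 545 CPM. Gpihbp1 was at 0 in the 11 cells.

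Cluster 5, with 0, 0, 4 and 8 cells, had 8 of 10 capillary markers raised but was left unnamed because several of its leading genes are better known from fat tissue. Fabp4 was at 41687 CPM against 4228 CPM in the other endothelial cells, and Cd36 at 7556 against 1257 CPM. Gpihbp1 was at 1848 against 296 CPM, and Lpl, lipoprotein lipase itself, at 774 against 37.8 CPM. Its 10 leading genes were Aqp7, a glycerol channel, Timp4, Lpl, Cfd (adipsin), Btnl9, Gm14221, Pid1, Fabp5, Fabp4 and Pparg, a lipid-sensing nuclear receptor. Cfd had 12 UMIs in 3 cells, all in this cluster, and Pid1 had 14 of its 17 UMIs in 3 of its cells. Of other adipocyte genes, looked up after these were seen, Adipoq, Plin1 and Cidec were at 0 in all 97 cells. Plin4 had 6 UMIs in 4 cells, 3 of them cells of this cluster, and Adig had 1 UMI outside it. Retn had 4 UMIs and Lep 1, all in this cluster. The haemoglobin genes Hbb-bs, Hba-a1 and Hba-a2 were raised in it as well.

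Cluster 2 was tip cell-like, with 7 of 12 markers of sprouting vessels raised, and held 0, 0, 16 and 5 cells. Its median UMI total was 12113, the highest of the 6 clusters. Kit was at 316 CPM against 30.0 CPM, Esm1 at 189 against 23.0 CPM, Angpt2 at 196 against 24.7 CPM and Pgf at 155 against 23.0 CPM. Most Kit UMIs of the endothelial cells, 92 of 109, therefore lay in this cluster, whereas the defining mast cell genes Fcer1a, Mcpt2, Mcpt4 and Tpsb2 were at 0. The markers were uneven between samples, since Pgf and Cxcr4 had no UMI in the 5 cells of sample 4. Of genes of other cell types, Cd52, Lyz2, Lcn2, Fscn1 and Uchl1 were raised in the cluster as well.

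Clusters 1 and 4 were left unnamed too. Cluster 1 held 3, 0, 10 and 9 cells with a median of 3574 UMIs, the lowest, and was led by Mustn1, Flna, Gm13889 and Notch3. Of the lists, that of mural cells had the most markers raised in it, 3 of 11 (Rgs5, Pdgfrb and Notch3), and its cells held 561 of the 922 mural UMIs. A single cell of it held 421 of these 561, and 105 of the 201 Mustn1 UMIs. Without that cell cluster 1 held 140 mural UMIs, fewer than the 200 of cluster 2. Cluster 4 held 3, 1, 8 and 3 cells and was led by Majin, B3galt1 and Hbb-bs, while Flt1 was at 4200 against 1512 CPM, Kdr at 1249 against 430 CPM and Plvap at 2046 against 868 CPM.

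**Figure D4:**
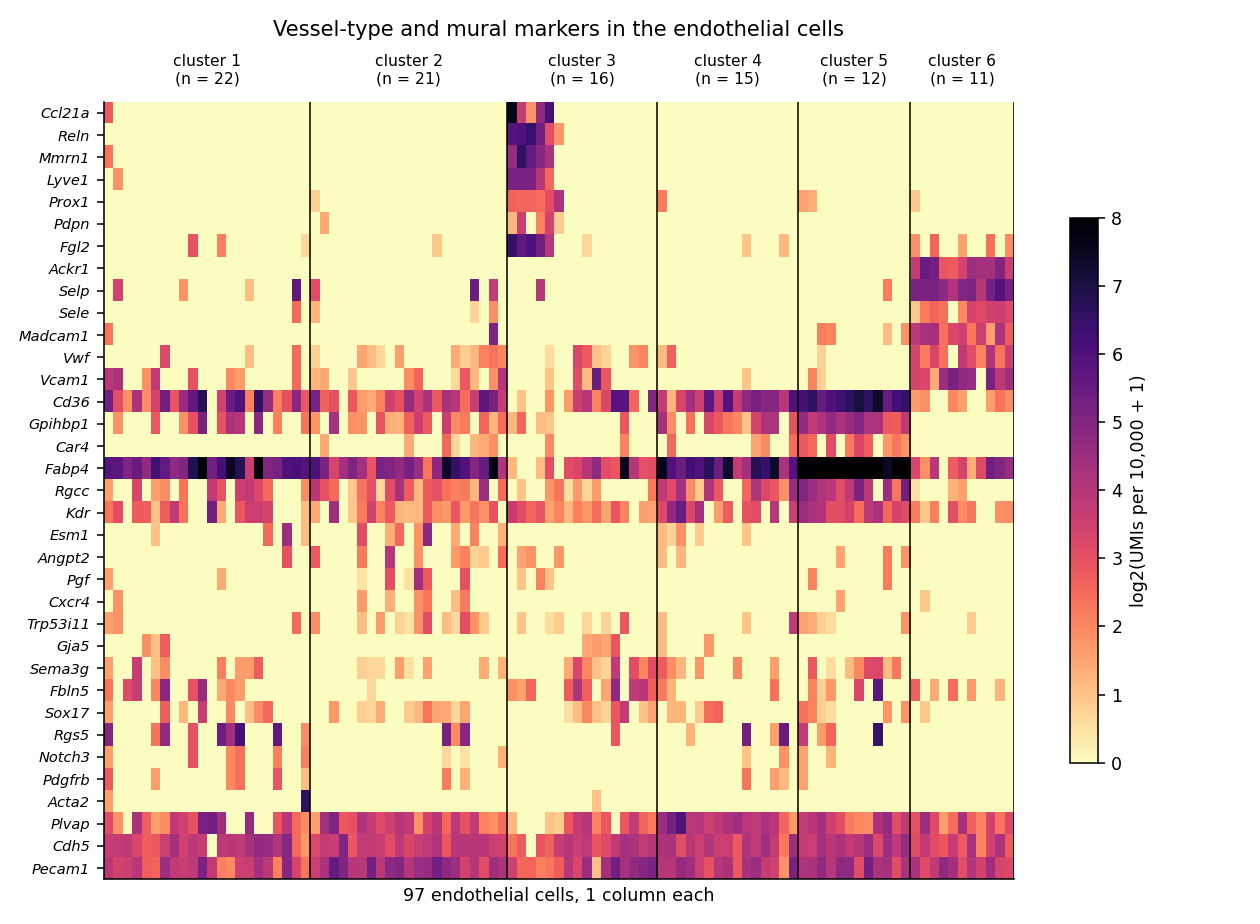
Markers of vessel types and mural cells (rows) in each of the 97 endothelial cells (columns, grouped by cluster). Colour is log2 of UMIs per 10000 UMIs of the cell plus 1 and reaches its darkest shade at 8. Ackr1 is seen in cluster 6 alone, Fabp4 is dark in nearly every cell of cluster 5, and Reln is seen in the first 6 cells of cluster 3 alone.

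Cluster 3 combined cells of different vessel types. It held 16 cells (1, 1, 6 and 8) and had 9 of 10 lymphatic but also 6 of 12 arterial markers raised. At a resolution of 1.5 it separated into 6 cells (0, 0, 3 and 3) and 10 cells (1, 1, 3 and 5), while the other 5 clusters stayed whole. The 10 cells had 10 of 12 arterial markers raised and were arterial-like. Sema3g, a semaphorin of arteries, was at 314 CPM against 80.7 CPM in the 81 cells of the other clusters, Fbln5, an elastic fibre protein, at 669 against 111 CPM, Efnb2, the arterial ephrin, at 517 against 153 CPM and Gja5, an arterial connexin, at 91.2 against 8.65 CPM.

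The 6 cells that separated from cluster 3 were lymphatic-like. They held 26 to 243 UMIs of Prox1, Lyve1, Mmrn1, Ccl21a, Flt4 and Reln together, and no other endothelial cell held more than 8. Of the 3 endothelial cells with a high Scrublet score, 1 was among these 6, the one with 26 lymphatic UMIs. Of the other high-scoring cells, 1 was among the 10 arterial-like cells and 1 was venous-like. The lymphatic-like one held no UMI of Lyve1, Mmrn1 or Ccl21a, and 22 of the 52 Prox1 UMIs of the 6 cells. The arterial-like one held 35 of 93 Dcn and 12 of 12 Dpt UMIs, both fibroblast genes. Ccl21a, the chemokine that draws CCR7-positive cells into lymphatic vessels, was at 4978 CPM against 0 in the 10 arterial-like cells and 4.32 CPM in the other 81. It was uneven, since 2 of the 6 cells held 144 and 142 UMIs, the median was 17.5 UMIs and 1 cell had none. Reln was at 3092 CPM and had no UMI in any other endothelial cell. Prox1, the transcription factor of lymphatic identity, was at 804 CPM against 0 and 13.0 CPM, and Lyve1, a hyaluronan receptor, at 1530 CPM against 0 and 1.44 CPM.

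Of the 25 pan-endothelial genes outside the selection, 18 were lower by at least 2-fold in these 6 cells than in the other 81 and 1, Ramp2, was higher by that much. The following examples were chosen after their values were seen. Plvap was at 61.8 CPM against 780 and 1143 CPM in the other cells of the cluster and the other 81 cells, although it was one of the genes of the selection. Flt1 was at 108 CPM against 1429 and 2083 CPM, and Cd34 and Mecom were at 0. Cldn5 ran the other way, at 927 CPM against 274 and 297 CPM. Flt4, the VEGF-C receptor, was less restricted than the other lymphatic genes, since the 6 cells held only 38.4% of its UMIs.

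A count of lymphatic-like cells by a lower bar gave more cells of less certain kind. With at least 3 UMIs of the 6 genes, 17 of the 97 cells qualified (17.5%, 95% interval 10.6% to 26.6%), namely 3, 1, 6 and 7 in samples 1 to 4. Only 7 of them lay in cluster 3. Without Flt4, 8 cells qualified (8.25%), and in sample 1 and sample 2 neither Ccl21a nor any cell with 10 lymphatic UMIs was found among the 8 and 4 endothelial cells.

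Summed over the lists, the subset genes were spread unevenly over the samples. Capillary genes summed to 5784, 3783, 12611 and 15989 CPM in samples 1 to 4, lymphatic genes to 506, 839, 2039 and 1966 CPM, and venous genes to 2239, 6709, 2335 and 2936 CPM. Arterial genes summed to 1653, 1303, 698 and 929 CPM and tip cell genes to 2972, 1303, 3225 and 2739 CPM. Against the other kept cells, 8 of 8 capillary, 10 of 10 venous, 8 of 10 lymphatic, 7 of 8 arterial and 10 of 11 tip cell genes were higher. Thy1 and Cxcr4, both abundant in leukocytes, were the lower genes. The sums of samples 1 and 2 rest on 8 and 4 cells, and 2 of the 4 cells of sample 2 were venous-like. In sample 3, 1450 of the 5763 UMIs of the capillary genes were Fabp4 UMIs of 1 cell. Fewer cells of a vessel type and less RNA per cell cannot be told apart in these sums.

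Genes of mural cells, the pericytes and smooth muscle cells that wrap vessels, were carried by some of the endothelial cells. Of 8 measured, 5 were higher than in the other kept cells and none was lower. The list summed to 13.3, 0, 753 and 2144 CPM in samples 1 to 4, against 50.4, 39.8, 102 and 98.3 CPM in the other kept cells. Rgs5, a pericyte gene, was its most abundant gene with 363 UMIs in 21 cells. In all, 22 cells (0, 0, 14 and 8) held at least 3 mural UMIs and 68 held none. The 22 cells had a median of 10064 UMIs against 6718 in the rest, and a median of 17.5 UMIs of the 4 selection genes against 18. Scrublet placed 1 of the 22 and 2 of the other 75 among its highest scores. None of the 22 was venous-like. The part of doublets in these values was not tested.

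The contractile genes came almost wholly from 1 cell. This cell of sample 4, in cluster 1, had 17733 UMIs, of which 176 were Acta2, out of 178 Acta2 UMIs in all 97 cells. It also held 141 of 160 Tagln, 62 of 66 Myl9, 89 of 96 Tpm2 and 45 of 51 Myh11 UMIs, beside 4 UMIs of Cdh5 and 7 of Pecam1. Without it the mural list in sample 4 fell from 2144 to 621 CPM and Acta2 from 658 to 3.98 CPM. Still 5 mural genes were higher than in the other kept cells, although Des was then replaced by Kcnj8.

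The genes with the largest difference between samples 3 and 4 mostly had this kind of origin. Of the 10 with the largest range, Acta2, Tagln, Myl9, Tpm2, Mustn1 and Emd took most of their UMIs from that cell. Gm16685 had 40 of its 60 UMIs in 1 cell of sample 4. Sgms2 had 26 and 78 UMIs in samples 3 and 4, and 32 of them came from 1 lymphatic-like cell of sample 4. Cd74, with 53 cells, was the gene of the 10 that was spread most widely. By contrast, the cell richest in Cyyr1 held 4.40% of its UMIs.

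**Figure D5:**
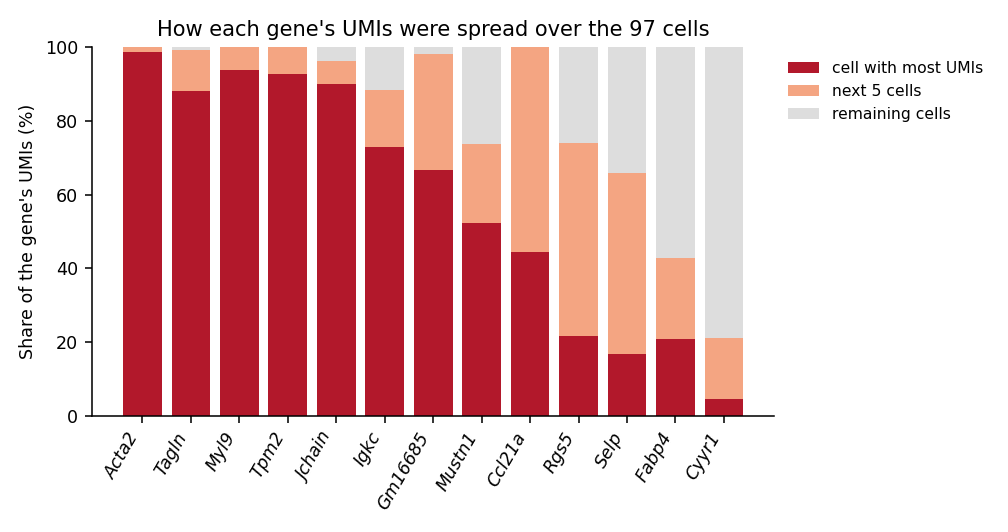
Share of each gene's UMIs (vertical axis, percent, bars start at 0) held by the cell with most UMIs, by the next 5 cells and by the remaining of the 97 endothelial cells. Acta2, Tagln, Myl9 and Tpm2 stood almost wholly in 1 cell, whereas Cyyr1 was spread over 90 cells.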

How the data were processed

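Single-cell libraries of bead-selected CD45+ colonic cells were made by a droplet method from 4 samples. The values are the UMI counts that the authors deposited, not normalized, for each gene in each cell called by Cell Ranger. The matrix headers name Cell Ranger 7.0.1, while the submitters' processing notes name Cell Ranger 5.0.0, STAR, Seurat and mm10. Filters for a cell were not given in the sources used here.

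Samples 1 to 4 held 11425, 13730, 11581 and 8493 deposited cells with 113806334, 135516016, 101579112 and 72509408 UMIs. Kept cells had medians of 7464, 6170, 6469 and 6091 UMIs. Chi-square values per gene between pairs of samples were 95.1 to 971, far above sampling noise. The AhR genotype of a sample is not in its labels, so no sample was put in a group.

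UMIs were summed over the cells of a class in a sample and scaled to counts per 1000000 UMIs (CPM). Levels carry 95% exact Poisson intervals, shares 95% exact binomial (Clopper-Pearson) intervals and ratios exact conditional intervals, all covering counting error only. Since transcripts of 1 cell vary together, these intervals are too narrow for differences between cells. No p-value was made from cells, which are not replicates. A gene was measured where the mean level of both classes reached 10 CPM in samples 3 and 4, and samples with under 20 endothelial cells gave no ranges. For detection, cells were also thinned to 1000 UMIs, which left out 2 endothelial cells. Epithelial-like cells held at least 4 UMIs of Krt8, Krt18, Krt19 and Phgr1 together with Epcam and no UMI of Ptprc, Cd3e, Cd79a, Csf1r or Cdh5.

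Clustering of the endothelial cells used 2000 variable genes, 20 principal components and 10 neighbours, and no integration. Scrublet scores were read as the highest 0.8% of cells per 1000 cells. Doublets were not removed in the main result.

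The members and the 40 gene lists were chosen with earlier results of these data known. Examples from the lists were taken by level or by ratio to the other kept cells, 20 further genes by the ratio among genes of at least 50 CPM, 10 by the range of log2(CPM + 10) among genes reaching 200 CPM, and leading genes for each cluster. Some other genes were picked once their values had been seen. Several genes that these rules select are not reported here. GENCODE release M21 held 32235 of 32285 gene identifiers. Alternatives were other thresholds, exclusion rules, doublet removal, resolutions and the omission of each sample. Tools were Python 3.11.15, numpy 2.4.6, pandas 2.3.3, scipy 1.17.1, scanpy 1.11.5, leidenalg 0.10.2, igraph 0.11.9 and matplotlib 3.10.9.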

Additional observations from a re-analysis of the deposited data

How the results depend on the processing

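The number of endothelial cells ranged from 87 to 140 over the alternatives beside 97. Allowing 1 UMI of the excluded genes gave the 140 and raised the median share of kept cells from 0.251% to 0.358%, and the other thresholds and doublet removal gave 0.220% to 0.271%. Leaving out each sample in turn gave median shares of 0.0728% to 0.430%, the lower value without sample 3 or sample 4 and the higher without sample 1 or sample 2. The share of lymphatic-like cells was 17.5% with at least 3 UMIs, 24.7% with at least 2 UMIs and 9.28% with at least 5 UMIs. In alternatives chosen after seeing the data it was 6.19% with at least 10 UMIs and 8.25% without Flt4. Leaving out each sample gave 15.7% to 22.4%. For the 25 pan-endothelial genes outside the selection, the alternatives counted any excess over the other kept cells in every sample. All 25 had it except after thinning, where 19 did. The 2-fold call of this list was not counted again under them. The number of clusters was 5 to 7 beside 6. Genes higher than in the other kept cells numbered 1243, or 1185 where the counting interval also had to exclude 1 and 1244 without the Acta2-rich cell, both alternatives chosen after seeing the data. Of 300 values of named genes under the alternatives, 263 moved by less than the 95% counting interval of the level and 37 by more, of which 21 came from leaving out sample 3 or sample 4, 12 from averaging the CPM of single cells and 4 from allowing 1 UMI of the excluded genes. No paired analysis was possible because the labels put no sample in a group. Depth limits samples 1 and 2, whose 8 and 4 cells give a limit (3 counts) of 40.0 and 53.5 CPM for a gene not seen.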
